A study of Rattus norvegicus with 20 samples.

Results

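The RNA of 10 drug transport genes was followed in rat liver across an oral dose series of PBDE-47, a brominated flame retardant: the efflux pumps Abcc2, Abcc3, Abcc4, Abcc6, Abcb1a, Abcb1b and Abcg2, and the uptake carriers Slco1b2, Slco1a4 and Slco2b1. Members were the array probe sets annotated with the symbol of 1 of these 10 genes and no other. They came to 13 probe sets of 9 genes, out of 31042 probe sets tested. Abcb1b had no probe set of its own, and 1 probe set annotated to both Abcb1a and Abcb1b is given beside the members and is not counted among them.

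The series measured gene expression in liver with 1-colour Affymetrix Rat230_2 arrays, 20 in all, as log2 RMA values (robust multi-array averaging puts the probes of a set on 1 normalised log2 scale). Wistar Han rats of the stock Crl:WI (Han) made up every group, with 5 arrays each: corn oil vehicle, and PBDE-47 at 0.1, 15 or 50 mg/kg per day. Dams were dosed daily by gavage, with corn oil as carrier, between gestation day 6 and postnatal day 4, having arrived at 11 to 12 weeks of age on gestation day 2, and RNA came from the left lateral lobe at postnatal day 4. The labels give the sex as female and tie the dosing to dams. Whether each liver was a dam's or a pup's, and whether the 5 arrays within a group stand for different animals or litters, was not given in the sources used here, so p-values measure only the spread between these arrays. RNA of albumin and other hepatocyte genes was high on all 20 arrays (mean of 5 of 6 listed genes, 14.19 to 14.30 on the log2 scale), as was Afp, the alpha-fetoprotein gene of the fetal and newborn liver (14.21 to 14.34). Such Afp values go with a newborn's liver, though the labels do not state it. Every dose named here is the dose given to the dam. The design compares each dose with vehicle, and the comparisons here ask at which doses the RNA of each transporter differed.

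Hepatocytes take up bile acids, conjugated hormones and drugs from blood through organic anion transporting polypeptides (the Slco genes), conjugate them, and pump the products out by ATP-binding cassette (ABC) transporters. Pumps of the canalicular membrane, among them Abcc2, Abcb1a, Abcb1b and Abcg2, empty into bile, whereas Abcc3 and Abcc4 sit on the sinusoidal side and return conjugates to blood. Several of these genes are known targets of the xenobiotic receptors CAR (Nr1i3) and PXR (Nr1i2), and Abcc3 and Abcc2 also of Nrf2 (Nfe2l2).

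Sequence upstream of the RefSeq gene start (build GRCr8) was at hand for 9 of the 10 genes; Abcc3 had no entry. The 250 bases before the start of Abcc2 and of both Abcb1 genes are shown. Abcc2 is shown for an element known from its promoter, and the Abcb1 pair because 1 probe set could not tell their transcripts apart. Capitals in the Abcc2 sequence (chr1:252613625-252613874, plus strand) mark TGAACTCTTAACCAAGTTCA, and capitals in Abcb1a (chr4:26397649-26397898, minus strand) and Abcb1b (chr4:26280030-26280279, minus strand) mark GC boxes (GGGCGG) and, in Abcb1b, CCAAT boxes (CCAAT or ATTGG on this strand).
Abcc2: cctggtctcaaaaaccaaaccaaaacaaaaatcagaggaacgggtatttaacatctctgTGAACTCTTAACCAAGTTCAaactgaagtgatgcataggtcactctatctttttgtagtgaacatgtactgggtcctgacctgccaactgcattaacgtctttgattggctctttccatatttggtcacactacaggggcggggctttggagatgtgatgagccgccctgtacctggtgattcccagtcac
Abcb1a: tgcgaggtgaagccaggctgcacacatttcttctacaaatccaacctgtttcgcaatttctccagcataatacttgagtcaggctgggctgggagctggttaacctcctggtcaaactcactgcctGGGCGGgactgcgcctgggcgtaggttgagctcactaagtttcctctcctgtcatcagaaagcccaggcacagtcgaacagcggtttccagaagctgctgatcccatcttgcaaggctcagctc
Abcb1b: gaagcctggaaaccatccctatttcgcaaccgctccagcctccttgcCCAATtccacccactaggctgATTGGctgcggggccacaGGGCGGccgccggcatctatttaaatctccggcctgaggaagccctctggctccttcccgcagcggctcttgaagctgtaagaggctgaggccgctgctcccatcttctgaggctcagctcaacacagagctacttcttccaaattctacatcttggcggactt

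The capitals in Abcc2 match TGAACT, any 8 bases and AGTTCA, an everted pair of nuclear receptor hexamers with 8 bases between them, and lie 191 to 172 bases before the start. An element of this form is known from the rat Abcc2 promoter as one that PXR, CAR and the bile acid receptor FXR bind with RXR. It was searched for after the sequence had been seen. The hexamers searched for are the letters of Abcc2 itself, so the match there was fixed in advance. On both strands these exact letters were found in 1 of 33469 promoters of this length (0.00299%), that of Abcc2. Other forms of the element were not searched for. The GC box was in 6 of the 9 transporter promoters (Abcc2, Abcc4, Abcc6, Abcb1a, Abcb1b and Abcg2) against 30.5% of all promoters, and CCAAT in 4 (Abcc2, Abcc6, Abcb1b and Slco1a4) against 34.0%. The receptor hexamer AGGTCA was in 2 (Abcc2 and Slco1b2) against 14.1%. The core GCGTG of the dioxin response element was in 1 (Abcc4) against 25.9%, the TATA box TATAAA in 1 (Slco1b2) against 12.9%, and the antioxidant response core TGACNNNGC in 0 against 10.1%. Where the 50 bases after the start were added, GCGTG was also in Abcg2 and Slco1b2 and TGACNNNGC in Abcc2. The 250 bases of Abcb1a and Abcb1b were identical at 157 of 289 aligned columns (54.3%). These matches describe the letters of short windows and show no binding.

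Arrays differed in how much RNA of neighbouring tissue they carried. Skeletal muscle genes (13 of 14 measured) averaged between 4.55 and 9.21 per array on the log2 scale and exocrine pancreas genes (12 of 12) between 4.45 and 7.03. In all, 9 arrays stood over 2 log2 units above the lowest array on at least 1 of these lists: 1 vehicle array, 4 of the 0.1 mg/kg group, 2 of the 15 mg/kg group and 2 of the 50 mg/kg group. Genes of the kidney (3 of 4), another organ with many of these transporters, stayed between 3.81 and 4.06. Markers of Kupffer cells, the liver's macrophages (7 of 9 genes), averaged 9.92 ± 0.0632 in vehicle arrays and 9.45 ± 0.142 at 50 mg/kg (SD, n = 5). All 7 had lower means than vehicle at 50 mg/kg. The limma adjusted p was under 0.05 for 4 of them, C1qb, C1qc, Cd163 and Cd68, lower by 0.48 to 0.57 log2 units. Of all probe sets, 0.934% passed that threshold at 50 mg/kg. C1qa, Csf1r and Clec4f differed by -0.46, -0.45 and -0.34 (limma adjusted p = 0.0574, 0.0947 and 0.31). The part of these genes in the transporter values was not tested. In bulk RNA, fewer cells of a type and less RNA per cell cannot be told apart. The array medians of all probe sets lay between 5.61 and 5.65.

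Abcc3, the sinusoidal pump for glucuronide conjugates, was the 1 gene with a called change in RNA among the 9 with a probe set of their own. On its probe set 1369698_at the vehicle arrays read 7.78, 8.34, 8.25, 8.62 and 8.82 on the log2 scale. The arrays at 0.1 mg/kg read 8.36, 8.65, 8.21, 7.95 and 8.50. The arrays at 15 mg/kg read 9.65, 9.68, 9.42, 9.35 and 9.90, and those at 50 mg/kg read 9.68, 9.52, 10.01, 9.96 and 10.14. The vehicle and 0.1 mg/kg arrays overlapped, and both higher doses lay, on all their arrays, above the highest array of vehicle and of 0.1 mg/kg.

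Group means of Abcc3 were 8.36 ± 0.397 in vehicle, 8.33 ± 0.27 at 0.1 mg/kg, 9.60 ± 0.219 at 15 mg/kg and 9.86 ± 0.257 at 50 mg/kg (log2 values, SD, n = 5). Abcc3 rose by 1.24 log2 units at 15 mg/kg (SE 0.171, 2.36-fold, 95% interval 1.84 to 3.02, limma adjusted p = 0.00255) and by 1.50 at 50 mg/kg (SE 0.171, 2.83-fold, 2.21 to 3.62, adjusted p = 7.3e-05). At 0.1 mg/kg the difference from vehicle was -0.03 with a 95% interval of -0.385 to 0.331 (adjusted p = 0.992). That interval rests only on the spread between these arrays. Of the 5 arrays at 0.1 mg/kg, 4 were rich in muscle or pancreas RNA. With those 9 arrays rich in muscle or pancreas RNA left out, 4 vehicle and 3 arrays of each higher dose were left. The Abcc3 difference was then 1.19 at 15 mg/kg, past the threshold no longer (adjusted p = 0.259), and 1.52 at 50 mg/kg (adjusted p = 0.0498). That fit keeps 1 array of the 0.1 mg/kg group, and its differences at 15 and 50 mg/kg were close to those over all arrays.

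Between the doses, Abcc3 was higher than at 0.1 mg/kg by 1.26 log2 units at 15 mg/kg (adjusted p = 0.00145) and by 1.53 at 50 mg/kg (adjusted p = 4.88e-05). Over the dose order (vehicle and the 3 doses as equal steps) it rose by 0.58 log2 units per step (SE 0.0542, adjusted p = 3.46e-06). From 15 to 50 mg/kg the difference was 0.26 with a 95% interval of -0.0957 to 0.62 (adjusted p = 0.872). Arrays of both doses overlapped, with 3 of the 5 at 50 mg/kg above every array at 15 mg/kg, and an added rise between these doses was not resolved.

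**Figure D1:**
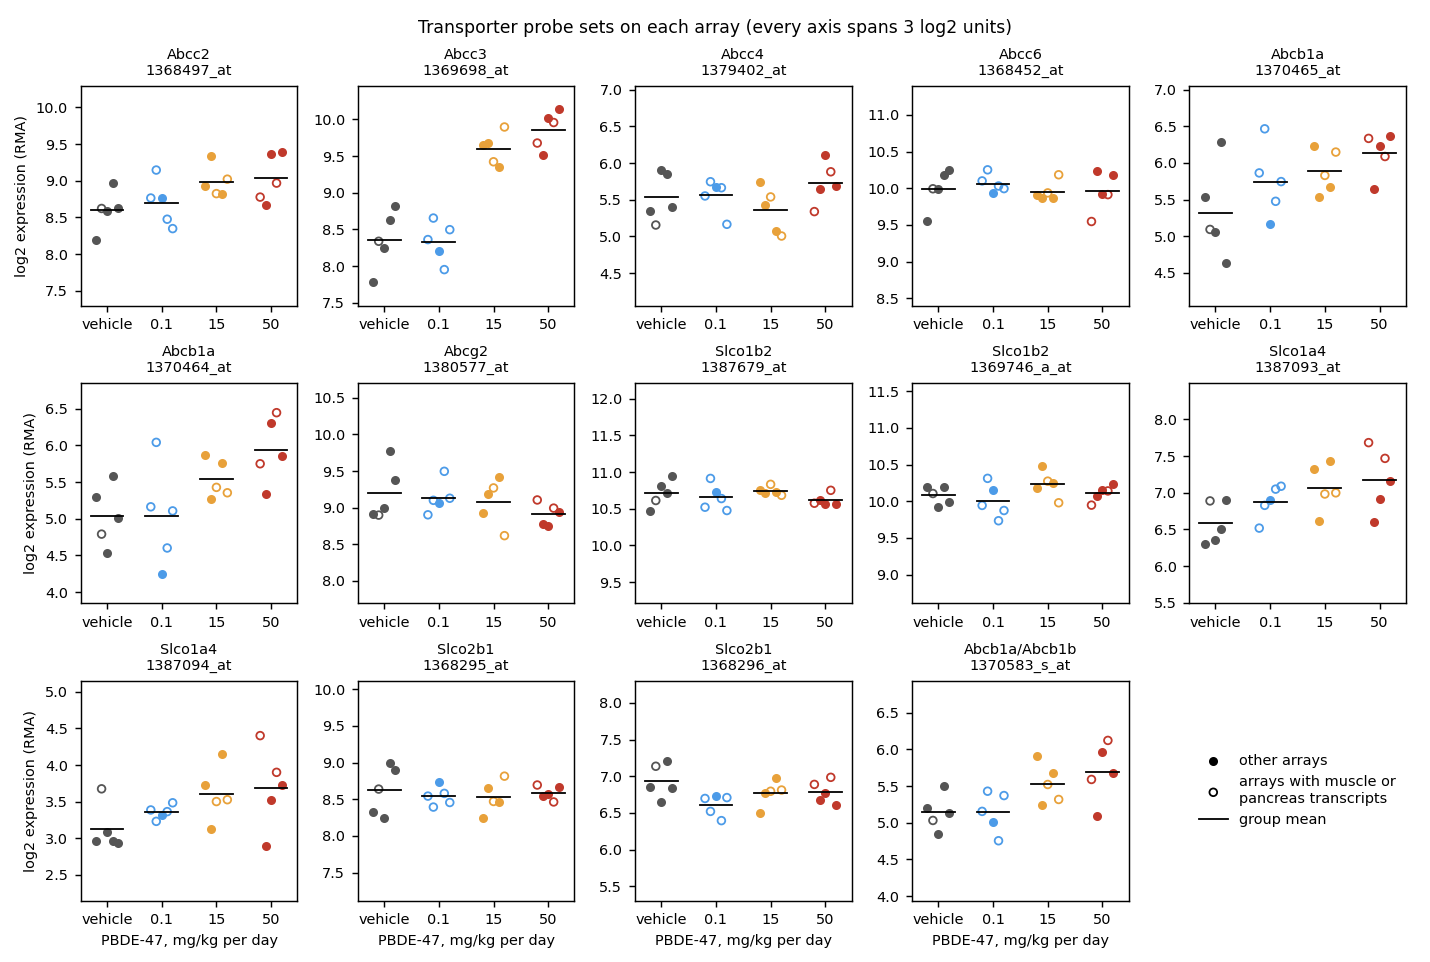
Log2 RMA expression (y axis, 3 log2 units in every panel) of the 13 transporter probe sets and the probe set shared by Abcb1a and Abcb1b on each of the 20 arrays, by PBDE-47 dose (x axis, 5 arrays per group); lines are group means and open symbols are the 9 arrays with muscle or pancreas transcripts. Abcc3 lies between 7.78 and 8.82 in vehicle arrays and between 9.35 and 10.14 at 15 and 50 mg/kg, while the groups of every other transporter overlap.

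Of the 13 member probe sets, 1 was called (adjusted p under 0.05, limma with Benjamini-Hochberg adjustment over all probe sets) at 15 mg/kg, where 0.116% of all probe sets were, and 1 at 50 mg/kg, where 0.934% were. It was Abcc3 in both. The same probe set was the 1 called in 15 against 0.1 mg/kg (0.0902% of all probe sets), in 50 against 0.1 mg/kg (0.644%) and over the dose order (1.45%). At 0.1 mg/kg 0 of 13 were called, as were 0% of all probe sets, with 1 of 13 at an unadjusted p under 0.05 against 6.87% of all probe sets. For 50 against 15 mg/kg 0 of 13 were called, again 0% of all, with 1 of 13 at an unadjusted p under 0.05 against 5.63%. Groups that did not overlap, with the dose higher, were found for 1 of 13 at 15 mg/kg (1.57% of all probe sets) and 1 of 13 at 50 mg/kg (1.78%), Abcc3 both times.

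Besides Abcc3, every probe set of Abcc2, Abcb1a and Slco1a4 had a higher mean than vehicle at both upper doses, without passing the adjusted threshold. Of Slco1b2, 1369746_a_at did too, by 0.15 and 0.03, and its other probe set did not. At an unadjusted p under 0.05, with Abcc3 counted, 5 of 13 probe sets were higher and 0 lower at 15 mg/kg (7.6% of all probe sets higher, 12.1% in either direction), and 6 of 13 were higher and 0 lower at 50 mg/kg (6.89% and 13%). Without Abcc3, which alone passed the adjusted threshold, these counts were 4 at 15 mg/kg and 5 at 50 mg/kg. They count probe sets and not genes. Both Slco1a4 probe sets are in them at 15 and 50 mg/kg, and both Abcb1a probe sets at 50 mg/kg. With group means removed, each pair correlated over the arrays (r = 0.82 for Slco1a4 and 0.726 for Abcb1a). The probe sets of a pair are therefore not separate observations, and the shares of all probe sets make no allowance for that. The median difference of the 13 was 0.154 at 15 mg/kg and 0.201 at 50 mg/kg on the log2 scale, where the median of all probe sets was 0.0135 and 0.00902. The 7 probe sets of efflux pumps, both of Abcb1a among them, had a median of 0.434 at 50 mg/kg and the 6 of uptake carriers -0.00115. The 3 comparisons with vehicle share the same 5 vehicle arrays.

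**Figure D2:**
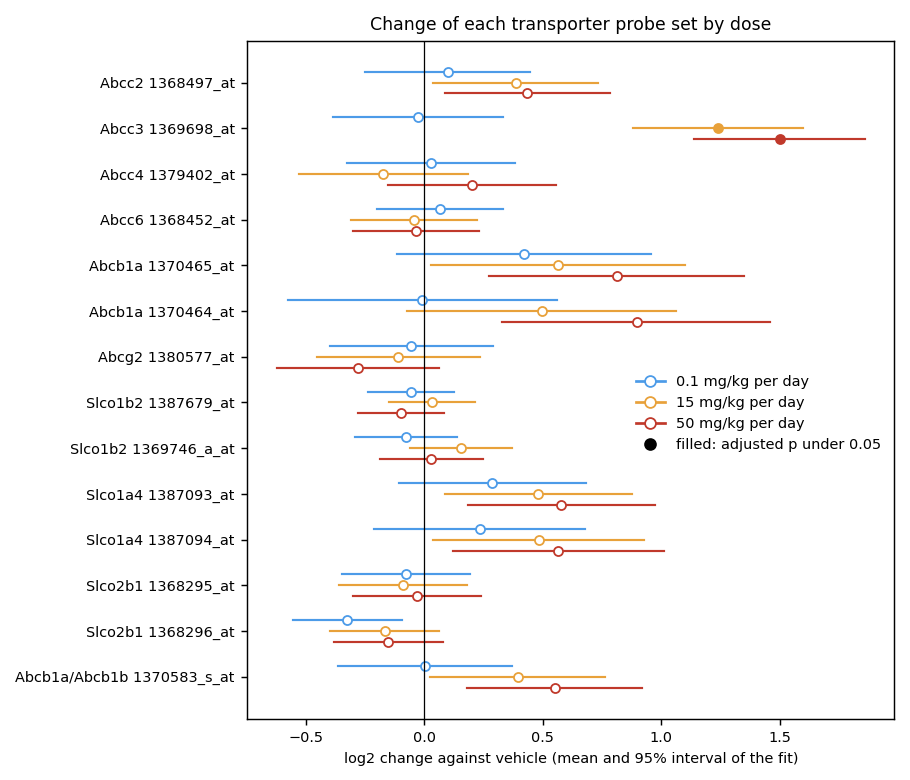
Log2 change against vehicle (x axis) with the 95% interval of the limma fit for each transporter probe set at 0.1, 15 and 50 mg/kg per day, 5 arrays per group; filled symbols passed an adjusted p of 0.05. The filled symbols are Abcc3 at 15 mg/kg (1.24) and 50 mg/kg (1.50), and the intervals of Abcc4, Abcc6, Abcg2, Slco1b2 and Slco2b1 at 50 mg/kg include 0.

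Abcb1a encodes a P-glycoprotein, the canalicular pump for bulky hydrophobic drugs, and its RNA was read by 2 probe sets. On 1370464_at the vehicle arrays were at 5.29, 4.79, 4.54, 5.58 and 5.01, and the arrays at 50 mg/kg at 5.75, 5.34, 6.31, 6.45 and 5.85 (log2 values). At 50 mg/kg, 4 of the 5 arrays exceeded the highest vehicle array, and the remaining one lay within the vehicle range. The arrays at 15 mg/kg, at 5.87, 5.27, 5.43, 5.77 and 5.35, and those at 0.1 mg/kg, at 5.16, 6.04, 4.25, 4.60 and 5.11, both overlapped vehicle. The difference at 50 mg/kg was 0.90 (95% interval 0.328 to 1.46, adjusted p = 0.137) and the slope over the dose order 0.32 per step (adjusted p = 0.0717). The slope passed the threshold without 0.1 mg/kg replicate 2 (0.345, adjusted p = 0.0193) or 50 mg/kg replicate 2 (0.364, adjusted p = 0.0428), and without the former so did the difference between 50 and 0.1 mg/kg (1.16, adjusted p = 0.0341).

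On the other Abcb1a probe set, 1370465_at, vehicle arrays were at 5.53, 5.09, 5.06, 6.29 and 4.64, and arrays at 50 mg/kg at 6.33, 5.65, 6.23, 6.09 and 6.37. Vehicle replicate 4, at 6.29, reached into the range of the highest dose, and the other vehicle arrays were at 5.53 or below. Its differences from vehicle were 0.42 at 0.1 mg/kg and 0.56 at 15 mg/kg (adjusted p = 0.792 and 0.392). On 1370464_at they were -0.01 and 0.50, so the probe sets differed at the lowest dose. The difference of 1370465_at at 50 mg/kg was 0.81 (95% interval 0.274 to 1.35, adjusted p = 0.161). Without vehicle replicate 4 it was 1.05 (adjusted p = 0.0432), the 1 array left out whose removal brought a probe set of Abcb1a alone past the threshold at 50 mg/kg. The shared Abcb1a/Abcb1b probe set, 1370583_s_at, differed from vehicle by 0.55 at 50 mg/kg (95% interval 0.181 to 0.918, adjusted p = 0.17), and which of the genes it read cannot be told apart. Without 50 mg/kg replicate 2 that difference was 0.70 (adjusted p = 0.0484). Its slope over the dose order was 0.20 per step (adjusted p = 0.0761) and was called in 3 of 33 alternatives: without 50 mg/kg replicate 2 (adjusted p = 0.0177), with array weights and with the actin covariate.

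Arrays high for 1 of these probe sets tended to be high for the others. Over the 20 arrays, with group means removed, the Abcb1a probe sets correlated at r = 0.726 (Spearman's rho = 0.69, permutation p = 0.00044 and 0.00118, adjusted over 6 such relations 0.00088 and 0.00236), and at 0.577 without the 2 arrays farthest from the median. In every such relation those 2 arrays were chosen on 1 of the probe sets only, here 1370465_at. The permutations shuffled all 20 deviations freely, without allowance for the removed group means, so all these permutation p-values run small. The shared probe set correlated with 1370464_at at r = 0.849 (rho = 0.94, permutation p = 2e-05 and 1e-05, the second the smallest 100000 permutations can give, adjusted 6e-05 for both, r = 0.948 without the 2 farthest arrays). With 1370465_at it correlated at 0.587 (rho = 0.597, permutation p = 0.00653 and 0.00612, adjusted 0.0098 and 0.00918, 0.473 without the 2 farthest). The Abcb1a probe sets were also noisy. The SD of arrays about their group means was 0.447 and 0.474, larger than that of 96.8% and 97.3% of all probe sets, against 0.293 for Abcc3 (90.6%).

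Abcc2 (1368497_at), the canalicular pump that exports bilirubin glucuronides into bile and whose upstream sequence holds the everted repeat, overlapped vehicle at every dose. Its vehicle arrays were at 8.20, 8.62, 8.59, 8.97 and 8.62, and its arrays at 50 mg/kg at 8.78, 8.68, 9.36, 8.97 and 9.39 on the log2 scale. At 15 mg/kg they were at 8.93, 9.34, 8.82, 8.82 and 9.02. The lowest arrays of both higher doses lay above 4 of the 5 vehicle arrays and below vehicle replicate 4. Abcc2 differed from vehicle by 0.39 at 15 mg/kg (95% interval 0.0373 to 0.734, adjusted p = 0.373) and 0.43 at 50 mg/kg (0.0858 to 0.783, 1.35-fold, adjusted p = 0.261), so a 2-fold rise, 1 log2 unit, lay outside both intervals. It passed the threshold in 0 of the alternatives tried.

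The remaining efflux pumps showed no difference that the test resolved. Abcc4 (1379402_at), a sinusoidal pump for cyclic nucleotides and sulphated bile acids, was the 1 member at an unadjusted p under 0.05 between 15 and 50 mg/kg. Its group means were 5.53 ± 0.328 in vehicle, 5.56 ± 0.231 at 0.1 mg/kg, 5.36 ± 0.311 at 15 mg/kg and 5.73 ± 0.286 at 50 mg/kg. The difference of 0.38 between the higher doses had an adjusted p of 0.858, and the one from vehicle at 50 mg/kg was 0.20 (95% interval -0.154 to 0.557, adjusted p = 0.674). Abcc6 (1368452_at), the sinusoidal pump whose loss in humans causes ectopic calcification, kept means between 9.95 and 10.06 in the 4 groups, and its difference at 50 mg/kg was -0.04 (95% interval -0.302 to 0.23, adjusted p = 0.943). Abcg2 (1380577_at), the breast cancer resistance protein that exports sulphates and urate, had means of 9.19 ± 0.382, 9.14 ± 0.218, 9.08 ± 0.317 and 8.91 ± 0.147 in dose order. Its difference at 50 mg/kg was -0.28 (adjusted p = 0.5), with vehicle replicates 4 and 5 at 9.78 and 9.38 and the other 3 vehicle arrays within the range of the highest dose.

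Slco1a4 is the polyspecific Oatp2 that carries bile acids, steroid conjugates and digoxin. Among the uptake carriers it alone had higher means than vehicle at both higher doses on each of its probe sets. On 1387093_at its vehicle arrays were at 6.31, 6.89, 6.35, 6.50 and 6.91, and its arrays at 50 mg/kg at 7.68, 6.61, 6.91, 7.47 and 7.16. Replicate 3 at 50 mg/kg lay just above the highest vehicle array and replicate 2 within the vehicle range. The difference was 0.48 at 15 mg/kg (95% interval 0.0855 to 0.876, adjusted p = 0.327) and 0.58 at 50 mg/kg (0.182 to 0.972, adjusted p = 0.18). Group means on this probe set were 6.59 ± 0.289, 6.88 ± 0.227, 7.07 ± 0.324 and 7.17 ± 0.429 in dose order.

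The second Slco1a4 probe set, 1387094_at, read low values, from 2.90 to 4.40. Its vehicle arrays were at 2.96, 3.68, 3.08, 2.97 and 2.94 and its arrays at 50 mg/kg at 4.40, 2.90, 3.52, 3.90 and 3.73. Vehicle replicate 2, an array with muscle transcripts, lay apart from the other vehicle arrays, and 50 mg/kg replicate 2 was the lowest of all 20. The difference at 50 mg/kg was 0.57 (adjusted p = 0.252). With group means removed, both Slco1a4 probe sets correlated over the 20 arrays at r = 0.82 (rho = 0.716, permutation p = 2e-05 and 0.00059, adjusted 6e-05 and 0.00177, r = 0.709 without the 2 arrays farthest out on 1387093_at). Without 50 mg/kg replicate 2, the lowest array of its group on both, the slopes over the dose order passed the threshold (1387093_at 0.23 per step, adjusted p = 0.0473; 1387094_at 0.25, adjusted p = 0.0372).

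Slco1b2, the liver's own Oatp4 and carrier of bilirubin and statins, had nearly level values. On 1387679_at its group means were 10.71 ± 0.183, 10.66 ± 0.176, 10.74 ± 0.0572 and 10.61 ± 0.08 in dose order, and on 1369746_a_at 10.08 ± 0.123, 10.00 ± 0.229, 10.23 ± 0.183 and 10.11 ± 0.106. At 50 mg/kg the differences were -0.10 (adjusted p = 0.684) and 0.03 (adjusted p = 0.943). With group means removed the Slco1b2 probe sets correlated at r = 0.192 (rho = 0.153, permutation p = 0.417 and 0.515, also 0.417 and 0.515 when adjusted), so they gave no common order of the arrays within groups.

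Slco2b1, a carrier of sulphated steroids found in many organs, had the 1 member probe set at an unadjusted p under 0.05 at the lowest dose. On 1368296_at vehicle arrays were at 6.86, 7.14, 6.64, 7.21 and 6.84 and arrays at 0.1 mg/kg at 6.70, 6.52, 6.74, 6.40 and 6.71, with an overlap through vehicle replicate 3. The difference was -0.33 (unadjusted p = 0.00779, adjusted p = 0.583), and it was -0.17 at 15 mg/kg and -0.15 at 50 mg/kg. The other Slco2b1 probe set, 1368295_at, differed from vehicle by -0.08, -0.09 and -0.03 in dose order. Both correlated at r = 0.463 with group means removed (rho = 0.314, permutation p = 0.0398 and 0.175, adjusted 0.0478 and 0.21). As these permutation p-values run small, the 0.0478 does not settle whether the probe sets are related. Without the 2 arrays farthest out on 1368295_at, r was 0.178, so the relation leaned on those arrays.

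Related transporters outside the 10 genes were read beside them. Of 42 probe sets of 30 other ABC transporter genes (of 34 listed), 0 were called against vehicle at any dose. Over all probe sets 0%, 0.116% and 0.934% were called in dose order. At an unadjusted p under 0.05 the counts in dose order were 4, 1 and 4, against 6.87%, 12.1% and 13% of all probe sets. The median difference of the 42 at 50 mg/kg was -0.05. Abcb11, the canalicular bile salt export pump, differed from vehicle by 0.32 at 50 mg/kg (adjusted p = 0.259), Abcb9, a lysosomal peptide transporter, by -0.54 (adjusted p = 0.193), and Abcb4, the canalicular phospholipid exporter, by 0.02 (adjusted p = 0.942). Abcg1, a lipid exporter, differed by -0.28, -0.04 and -0.08 on its 3 probe sets, the channel subunit gene Abcc9 by -0.41, -0.15 and -0.35 on its 3, and Abcd2, a peroxisomal transporter, by 0.42 (adjusted p from 0.312 to 0.896). Abcd3, a peroxisomal importer of fatty acids, was the 1 of 42 called in any comparison. It was 0.33 higher at 50 than at 0.1 mg/kg (adjusted p = 0.0497), where 0.644% of all probe sets were called. That call held in 10 of 36 alternatives.

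Other uptake and exchange carriers were read by 29 probe sets of 23 genes (of 27 listed). At an unadjusted p under 0.05 the counts against vehicle in dose order were 3, 6 and 3, against 6.87%, 12.1% and 13% of all probe sets. At 15 mg/kg 5 of the 6 were higher, against 7.6% of all probe sets. Of the 29 probe sets, 1 was called against vehicle, at 50 mg/kg, where 0.934% of all probe sets were. It was Slc22a18 (1374222_at), an organic cation transporter-like gene, with group means of 10.68 ± 0.186, 10.60 ± 0.123, 10.91 ± 0.107 and 11.08 ± 0.0493 in dose order. The 5 arrays at 50 mg/kg (11.00 to 11.12) did not overlap the vehicle arrays (10.40 to 10.85). Slc22a18 rose by 0.40 (SE 0.0822, 1.32-fold, adjusted p = 0.0224), by 0.48 against 0.1 mg/kg (adjusted p = 0.00601) and by 0.15 per step of the dose order (adjusted p = 0.00447). The call against vehicle ended with only the groups compared in the fit (adjusted p = 0.1), without the 9 arrays (0.40, adjusted p = 0.332) and without vehicle replicate 1 or 3 or 50 mg/kg replicate 4 or 5 (adjusted p from 0.0524 to 0.0688). Slc22a6 and Slc22a7 differed by 0.23 and 0.24 at 50 mg/kg, Slco5a1 by 0.23 and 0.14 on its probe sets and Slc22a8 by -0.38 and -0.23 (adjusted p from 0.317 to 0.517). Slc10a1, the main sodium-dependent carrier of bile acids from blood, differed by -0.12 at 50 mg/kg (adjusted p = 0.619) and Slco1a1 by -0.09 (adjusted p = 0.861).

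The RNA of the receptors and factors that act on transporter genes was also read (19 probe sets of 13 of 14 listed genes). Of these, 0 were called against vehicle at any dose (0%, 0.116% and 0.934% of all probe sets in dose order). At an unadjusted p under 0.05 there were 1, 2 and 2 of 19, against 6.87%, 12.1% and 13% of all. The PXR gene Nr1i2 differed by 0.13 at 50 mg/kg (adjusted p = 0.532), the CAR gene Nr1i3 by -0.27 (adjusted p = 0.456) and Nfe2l2 by 0.17 (adjusted p = 0.412). Keap1, the partner that restrains Nrf2, differed by 0.14 and 0.26 on its probe sets, Hnf4a by -0.18, -0.06 and 0.13 on its 3, and Ppara by 0.27 (adjusted p from 0.298 to 0.882). Ahr, the dioxin receptor, was called over the dose order on 1 of its 2 probe sets (1369146_a_at, 0.28 per step, adjusted p = 0.025). On that probe set its means were 6.15 ± 0.435, 6.10 ± 0.185, 6.91 ± 0.312 and 6.81 ± 0.365 in dose order, and the differences of 0.76 at 15 mg/kg and 0.66 at 50 mg/kg were not called (adjusted p = 0.149 and 0.123). The other Ahr probe set, 1369147_at, with a low vehicle mean of 4.54, differed by 0.29 and 0.02. Groups that did not overlap, with the dose higher, were found for 2 of 19 at 15 mg/kg (1.57% of all probe sets), both Ahr probe sets. At 50 mg/kg there was 1 of 19 (1.78%), Keap1 on 1370066_at. There, 4 of 5 arrays on 1369146_a_at and 2 of 5 on 1369147_at lay above every vehicle array. The slope call of Ahr held in 27 of 35 alternatives and was lost, among others, without the 9 arrays (0.38 per step, adjusted p = 0.167) and without vehicle replicate 1 or 3 or 50 mg/kg replicate 3 or 5 (adjusted p from 0.0554 to 0.0648).

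**Figure D3:**
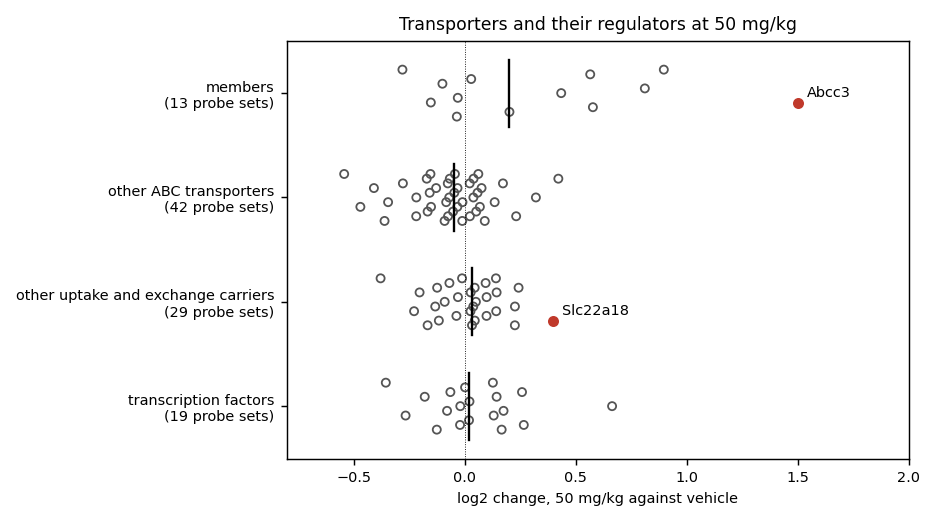
Log2 change at 50 mg/kg against vehicle (x axis) of each probe set in 4 lists (5 arrays per group): the 13 transporter probe sets, 42 of other ABC transporters, 29 of other uptake and exchange carriers and 19 of transcription factors; bars are list medians and filled red symbols passed an adjusted p of 0.05. The medians are 0.20, -0.05, 0.03 and 0.02, and the filled symbols are Abcc3 at 1.50 and Slc22a18 at 0.40.

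The 5 genes whose values over the 20 arrays followed Abcc3 most closely, by Pearson's r over all probe sets with 1 symbol and dropping repeats of a gene, were Cyp2c6v1 (0.937), Cyp2a3 (0.928), Cyb5a (0.913), Cyp2c7 (0.913) and Alas1 (0.91). Cyp2c6v1, Cyp2a3 and Cyp2c7 are cytochrome P450 genes, Cyb5a encodes the cytochrome that passes electrons to P450 enzymes, and Alas1 encodes the rate-limiting enzyme of haem synthesis. With group means removed, the same correlations were lower, at 0.389, 0.524, 0.437, 0.269 and 0.65, given as a description: the values of each gene come from the same 20 arrays. Cyp2c6v1 rose by 1.75 at 15 mg/kg and 1.80 at 50 mg/kg (adjusted p = 3.64e-07 and 1.49e-07), close to level between the higher doses, while Alas1 rose by 0.83 and 1.52 (adjusted p = 0.0212 and 1.35e-05). Abcc3, at 1.24 and 1.50, lay between these patterns, and no test of that order was made.

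**Figure D4:**
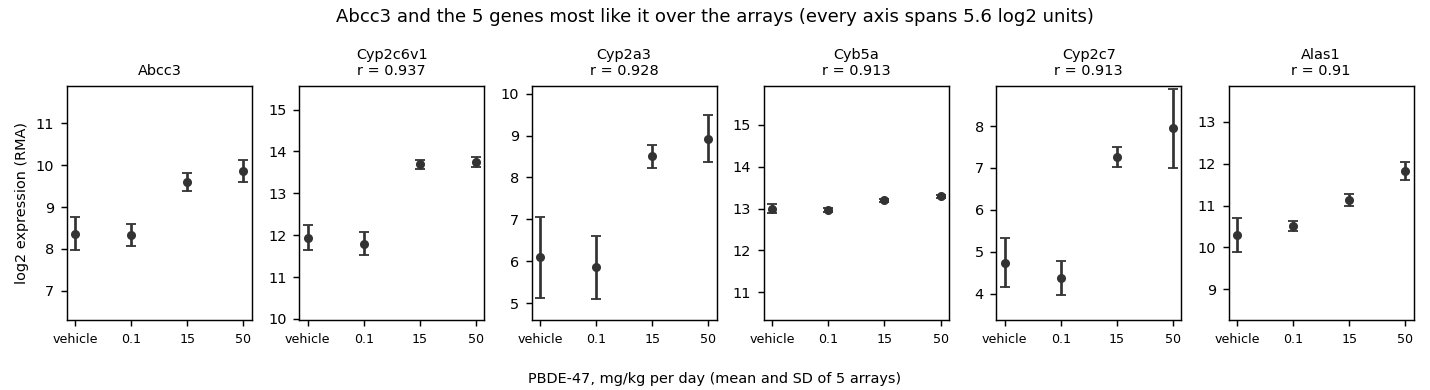
Mean and SD of log2 RMA expression (y axis, 5.6 log2 units in every panel) of Abcc3 and the 5 genes most like it, by PBDE-47 dose (x axis, 5 arrays per group), with r over the 20 arrays. All 6 have their higher means at 15 and 50 mg/kg, and Cyb5a spans the least, from 12.97 to 13.30.

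Cells other than hepatocytes were read beside Abcc3, which cholangiocytes of the bile ducts also carry. Cholangiocyte markers (5 of 6 genes) averaged 5.77 ± 0.19, 5.84 ± 0.176, 5.89 ± 0.19 and 5.79 ± 0.112 in dose order, and none of Krt7, Krt19, Epcam, Spp1 and Cftr was called at 15 or 50 mg/kg. Krt7 and Cftr read low, with vehicle means of 4.64 and 3.28, where the median probe set had a mean of 5.62. Krt19 differed from vehicle by 0.18 at 15 mg/kg and -0.29 at 50 mg/kg, and Epcam by 0.32 and 0.20. The list mean pools such unlike markers and is a weak measure of these cells. With the cholangiocyte mean as a covariate, added after the data had been seen, Abcc3 was 1.10 higher at 15 mg/kg (adjusted p = 0.000897) and 1.48 higher at 50 mg/kg (adjusted p = 6.36e-06). The part of cholangiocytes in the Abcc3 values was not tested. RNA integrity was read from the 3′ minus 5′ probe sets of actin, which lay between 1.22 and 2.43 over the arrays and between 1.90 and 2.43 at 50 mg/kg. With it as a covariate, also added later, the Abcc3 differences were 1.22 and 1.63 (adjusted p = 0.000346 and 9.56e-06).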

How the data were processed

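The authors deposited log2 expression values for 31099 probe sets, named RMA in the submitters' processing notes; 57 control probe sets were left out and no filter on level was set. RMA compresses large ratios and carries no read depth, so the number of arrays limits precision. Probe sets were named from the platform annotation (20826 with 1 symbol, 436 with several, 9780 with none here). One linear model over the 4 groups was fitted with limma 3.58.1 in R 4.3.3, with Benjamini-Hochberg adjustment in each of 7 contrasts, and tested on simulated data. Called means an adjusted p under 0.05. The deposited design text names another package, R/maanova, for the same comparisons with vehicle. Beside the members, the text names 6 probe sets per list, ranked by p at 50 mg/kg, plus genes of known bile or receptor roles chosen after their values were seen. Members, lists and alternatives were chosen with earlier results of these data known. Replicate numbers are shared between groups, but same-numbered arrays did not deviate together. Alternatives covered blocks, normalization, level filters, variance shrinkage, array weights, covariates and each array left out. Promoters are RefSeq's, searched in Python 3.11.15 and aligned with Biopython 1.88.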

Additional observations from a re-analysis of the deposited data

Results flagged for a closer look

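In 3 of 56 groups of 5 arrays (14 probe sets in 4 groups), the highest array stood apart from the others by Dixon's ratio, where chance gives about 1 group in 20. For Abcc6 at 15 mg/kg, replicate 5 read 10.18 and the nearest other array 9.94, with the lowest at 9.86. For Slco1b2 on 1387679_at at 50 mg/kg, replicate 4 read 10.75, the nearest 10.61 and the lowest 10.56. For Slco1a4 on 1387094_at in vehicle, replicate 2 read 3.68, the nearest 3.08 and the lowest 2.94. All 3 arrays carried muscle or pancreas transcripts, whose part in these values was not tested.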

How the results depend on the processing

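Abcc3 was called at 50 mg/kg in 36 of 36 alternatives (1.35 to 1.63) and at 15 mg/kg in 35 of 36 (1.09 to 1.35). With a replicate block (same-numbered pairs correlated from -0.362 to 0.288, and 4 of 20 arrays correlated best with their own number) it was 1.24 and 1.50, and the member counts were the same in the comparisons with vehicle (0, 1 and 1). Without the muscle or pancreas arrays the member count was 0 at 15 mg/kg, in 15 against 0.1 mg/kg and in 50 against 0.1 mg/kg (Abcc3 1.35 and 1.68, adjusted p = 1 and 0.601, with fewer arrays). Over the dose order it was 2 with the description digit as a block, with array weights and with the actin covariate, the added probe set being 1370464_at of Abcb1a (adjusted p = 0.041, 0.0356 and 0.033). Leaving out 1 array gave 1 to 2 at 50 mg/kg, 1 to 2 in 50 against 0.1 mg/kg (2 without 0.1 mg/kg replicate 2) and 1 to 4 over the dose order (4 without 50 mg/kg replicate 2, 2 without vehicle replicate 4 or 0.1 mg/kg replicate 2). Over all probe sets the count at 50 mg/kg was 89 with only the groups compared, 160 adjusted over all contrasts, 21 without the muscle or pancreas arrays and 106 to 276 with 1 array left out, and at 15 mg/kg it ranged from 7 to 57.

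Signs changed only for uncalled differences. At 0.1 mg/kg Abcb1a/Abcb1b 1370583_s_at was -0.0651 (digit block), -0.0221 (another quantile normalization), -0.0104 (equal medians), -0.0138 (array weights), -0.159 (without the muscle or pancreas arrays), -0.0144 (muscle, pancreas and erythroid covariates), -0.0354 (actin) and -0.0251 (cholangiocyte), and Abcc3 was 0.000884 under the quantile normalization. Without the muscle or pancreas arrays, values at 0.1 mg/kg were -0.0626 for Abcc6, -0.214 for Abcb1a 1370465_at, 0.0741 for Slco1b2 1369746_a_at and 0.118 for Slco2b1 1368295_at, Slco1b2 1387679_at was -0.00326 at 15 mg/kg and Abcc6 0.117 at 50 mg/kg. Slco1b2 1387679_at was -0.0307 at 15 mg/kg with the tissue covariates and Slco2b1 1368295_at 0.0199 at 50 mg/kg with actin. The cause was not tested. With 1 array left out, ranges at 0.1 mg/kg were -0.0136 to 0.192 for Abcc2, -0.172 to 0.0877 for Abcc3, -0.0657 to 0.127 for Abcc4, -0.0427 to 0.129 for Abcc6, -0.262 to 0.186 for Abcb1a 1370464_at, -0.0724 to 0.1 for the shared probe set, -0.145 to 0.0908 for Abcg2, -0.121 to 0.00267 for Slco1b2 1387679_at and -0.175 to 0.0148 for Slco2b1 1368295_at. At 15 mg/kg they were -0.153 to 0.0188 for Abcc6, -0.195 to 0.0362 for Abcg2, -0.0285 to 0.0905 for Slco1b2 1387679_at and -0.188 to 0.00178 for Slco2b1 1368295_at. At 50 mg/kg they were -0.145 to 0.0677 for Abcc6, -0.0108 to 0.0697 for Slco1b2 1369746_a_at and -0.127 to 0.063 for Slco2b1 1368295_at.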

Other observations

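Of the 10 protein-coding genes beside Abcc3 in the RefSeq order (GRCr8, 5 on each side), 7 had probe sets annotated to them alone, and none of those was called. The other 3 were not read. Tob1, Luc7l3, Ankrd40, Cacna1g, Spata20, Epn3 and Mycbpap were read by 12 probe sets. Of these, limma called 0 at 15 mg/kg and 0 at 50 mg/kg (0.116% and 0.934% of all probe sets). At an unadjusted p under 0.05 there were 0 and 2 (12.1% and 13% of all). Mycbpap and both Spata20 probe sets had low vehicle means (3.29, 3.71 and 3.94), so their lack of a call says little. Cacna1g, the next protein-coding gene on one side, differed from vehicle by 0.01 at 15 mg/kg and -0.03 at 50 mg/kg (adjusted p = 0.96 and 0.931). Ankrd40, the next on the other side, differed by 0.07 and 0.02 on 1 probe set and by -0.11 and -0.18 on the other. The Luc7l3 probe set 1382957_at was at -0.48 at 15 mg/kg (adjusted p = 0.462) and at -0.12 at 50 mg/kg.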
